A study of Mus musculus with 9 samples.

Results

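The corticosteroid receptors and a set of genes that glucocorticoids are known to induce were followed in RNA-seq libraries of mouse heart. The set was taken by gene symbol and holds 10 genes, of which 9 had a row among the 22851 genes of the count matrix. They are the glucocorticoid receptor Nr3c1, the mineralocorticoid receptor Nr3c2, the receptor co-chaperone Fkbp5, Tsc22d3 (also known as Gilz), the transcription factors Zbtb16 and Klf9, the kinase Sgk1 and the metallothioneins Mt1 and Mt2. Hsd11b1, which regenerates active glucocorticoid inside cells, was not analysed here. All 9 passed the filter on low counts in all 3 comparisons.

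Glucocorticoids are adrenal steroids, corticosterone in the mouse, that enter cells and bind receptors held in a chaperone complex with Hsp90. The bound receptor moves to the nucleus and activates or represses genes at glucocorticoid response elements. In cardiac muscle cells the mineralocorticoid receptor also binds glucocorticoids, since the enzyme that would inactivate them there is scarce. Fkbp5 lowers the affinity of the receptor for its hormone and is itself induced by the receptor, which makes it a widely used readout of receptor activity. Metallothioneins bind zinc and copper and are induced by metals as well as by glucocorticoids.

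The libraries came from 3 groups of male mice, 3 libraries each, of the strain C57BL/6 in the labels and C57BL/6J in the methods. Control mice (CK) received citrate buffer. Mice of the diabetic cardiomyopathy model (DCM) received a single dose of streptozotocin at 180 mg/kg, which destroys insulin-producing cells, and were killed 12 weeks later. Mice of the spermine group (SPM) received the same streptozotocin and, in addition, the polyamine spermine by injection, a daily dose of 1 mg/kg during the 2 weeks leading up to it and a dose on alternate days through the following 12 weeks. No group received spermine without streptozotocin. All mice were 6 to 8 weeks old at the start and were fasted overnight before the hearts were taken under pentobarbital. Hormone levels in blood are not among the files used here. The methods name 3 mice per group in one place and pools of 6 hearts in another, so that p-values measure the spread between libraries, which may each be a mouse or a pool.

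Total counts per library lay between 29901300 and 39718680, and the mitochondrial share was 13.7% to 16.2% in the CK libraries, 15.5% to 18.9% in those of DCM and 21.0% to 21.1% in those of SPM. The tissue label is heart, while the extraction protocol speaks of retinas. All 7 cardiomyocyte markers measured reached 1 CPM in every library, and none of the 6 retina markers measured reached 1 CPM in all libraries of any group, with a summed level of at most 1.56 CPM. SPM replicate 2 stood apart from the other libraries in that its counts resembled a mixture of SPM replicates 1 and 3. It lay between them for 69.0% of 11990 genes with a mean count of at least 50, and a mixture of 44% of replicate 1 left a deviation of 0.881 times the counting noise, against 2.62 or more for every other library and pair. It lay between them for all 9 genes of the set. Its independence is in doubt, and the tests that involve SPM are therefore given with and without it, while group means, SDs and levels of SPM include it.

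Promoter windows of 250 bases before a RefSeq transcription start (GRCm38.p6) were at hand for 7 of the 9 genes, 14 windows in all. They were searched on both strands for 3 motifs. The first is the palindromic glucocorticoid response element, AGAACA followed after any 3 bases by its reverse complement TGTTCT, the second is the single repeat AGAACA, which every palindrome holds on both strands, and the third is the core of the metal response element, TGCACNC or TGCGCNC. The palindrome was found in 3 of 32851 windows of all genes (0.00913%), one of them at Sgk1. The single repeat occurred in 16.1% of windows, and the metal response core in 21.4%. The windows below are shown because the Sgk1 window holds the palindrome and the windows of Mt1 and Mt2, neighbours on chromosome 8, differ in their metal response cores. The capitals mark these motifs. The Sgk1 window is chr10:21993640-21993889, that of Mt2 is chr8:94172368-94172617 and that of Mt1 is chr8:94178839-94179088, all on the plus strand and 5′ to 3′.
Sgk1: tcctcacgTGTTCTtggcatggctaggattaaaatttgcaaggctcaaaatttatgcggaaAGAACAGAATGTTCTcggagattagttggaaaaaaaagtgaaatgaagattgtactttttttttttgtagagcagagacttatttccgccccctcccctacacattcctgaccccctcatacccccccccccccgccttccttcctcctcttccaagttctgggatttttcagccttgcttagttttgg
Mt2: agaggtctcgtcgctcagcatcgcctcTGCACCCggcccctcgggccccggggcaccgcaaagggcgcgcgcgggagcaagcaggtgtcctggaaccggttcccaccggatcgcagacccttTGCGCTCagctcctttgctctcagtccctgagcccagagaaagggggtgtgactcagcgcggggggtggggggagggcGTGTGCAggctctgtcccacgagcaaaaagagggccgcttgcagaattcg
Mt1: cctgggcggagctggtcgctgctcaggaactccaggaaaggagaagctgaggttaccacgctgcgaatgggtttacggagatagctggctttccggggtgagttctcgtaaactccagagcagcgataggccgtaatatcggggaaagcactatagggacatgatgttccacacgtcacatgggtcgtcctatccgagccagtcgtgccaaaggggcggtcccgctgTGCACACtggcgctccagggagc
In the Sgk1 window the palindrome spans the bases from -189 to -175, at chr10:21993701-21993715, and a further single repeat lies at -242 to -237. Positions are counted from the start that this window precedes. Sgk1 has several RefSeq starts, some further downstream, and its other windows held no palindrome. The windows of Fkbp5 and Klf9 held none of the 3 motifs. The Mt2 window holds 3 metal response cores and the Mt1 window 1, and 3 or more occur in 1.26% of all windows. These counts depend on the RefSeq start used. Cores past that start or further upstream were not searched, so the counts do not compare the whole promoters of Mt1 and Mt2. The single repeat was absent from the windows of Mt1 and Mt2 and present in 3 windows of Sgk1 and 1 of Tsc22d3. These are matches of letters and no measure of binding.

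Per length, in the deposited FPKM, Mt1 had the highest mean of the set and Mt2 the lowest in each group. In CK the mean FPKM were 130 ± 4.98 for Mt1, 45.5 ± 7.53 for Tsc22d3, 43.8 ± 6.31 for Sgk1, 28.6 ± 6.22 for Klf9, 12.5 ± 1.33 for Zbtb16, 11.7 ± 1.41 for Nr3c1, 9.02 ± 1.84 for Fkbp5, 4.70 ± 0.35 for Nr3c2 and 1.41 ± 0.16 for Mt2 (SD, n = 3). The libraries of Tsc22d3 and Sgk1 overlapped, as did those of Zbtb16 and Nr3c1 and those of Nr3c1 and Fkbp5. The order differed in DCM, where Fkbp5 stood at 30.2 ± 5.25 FPKM and Zbtb16 at 26.6 ± 7.54, both above all values of Nr3c1, at 8.70 ± 0.91. In SPM, Fkbp5 was at 29.8 ± 6.99, Zbtb16 at 28.7 ± 8.22 and Nr3c1 at 10.3 ± 0.92 FPKM. In DCM the libraries of Sgk1 and Tsc22d3, of Fkbp5 and Zbtb16 and of Nr3c2 and Mt2 overlapped. In SPM the first and second of these pairs overlapped.

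The comparison of DCM with CK asks which genes differ in the diabetic heart. Fkbp5, Zbtb16, Mt1 and Mt2 were upregulated DEGs, which means a Benjamini-Hochberg adjusted p below 0.05 in edgeR's quasi-likelihood test and a fold change of at least 1.5. These are 4 of the 9 genes, where 4.34% of all 14402 genes tested were DEGs and 2.03% were upregulated. Sgk1 and Klf9 passed the adjusted p but not the fold change, and at this looser limit 6 of the 9 genes were higher, against 5.28% of all genes. The number was 4 without any one of the DCM libraries and with limma. For 7 of the 9, Tsc22d3 included, all DCM libraries lay above all CK libraries, which was so for 14.5% of all genes. The median log2 fold change of the 9 genes was 0.54, and that of all genes tested was -0.00. The set was chosen with earlier results of these data known. Its counts beside the shares of all genes, here and in the other comparisons, are therefore descriptive and no test. In bulk tissue a difference in RNA per cell and a difference in the number of cells of a type cannot be told apart.

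**Figure D1:**
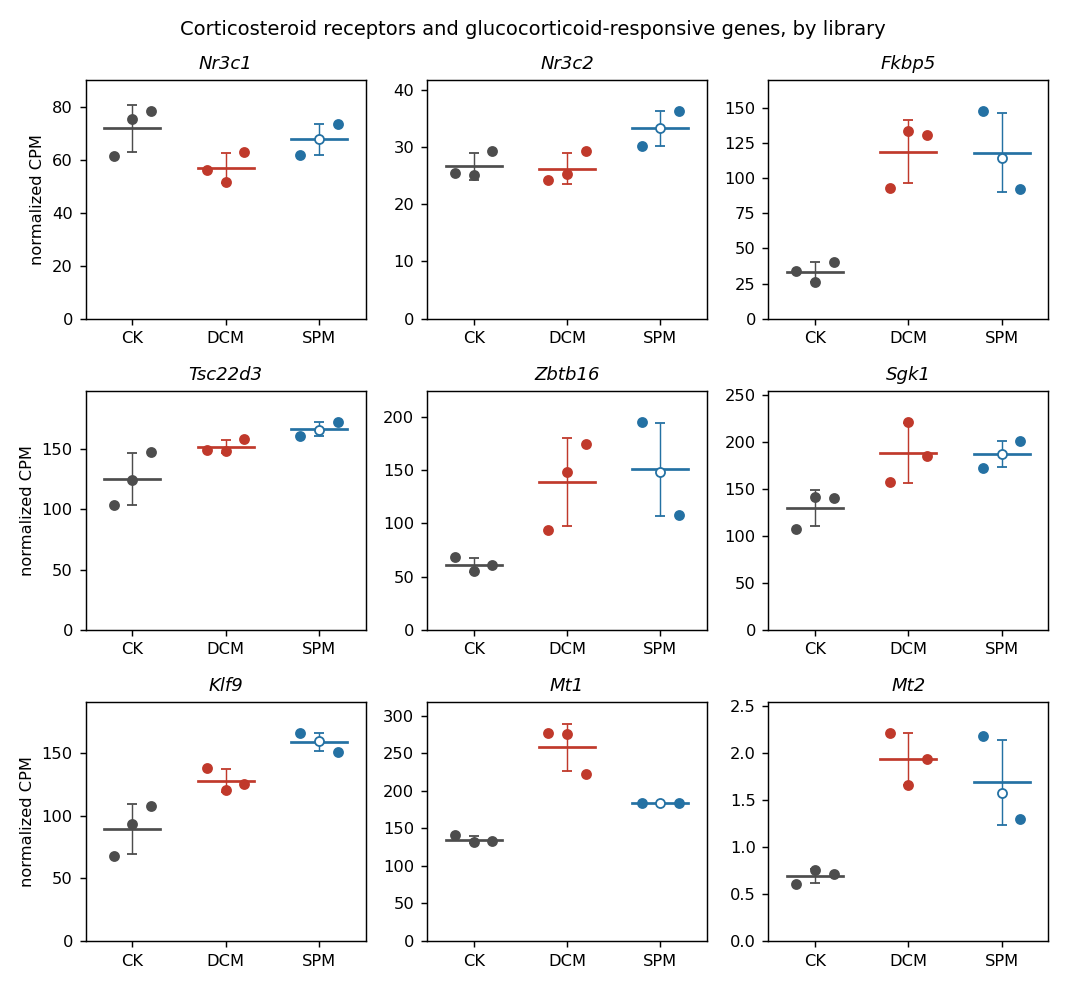
Normalized CPM (vertical axes, linear from 0) of the 9 genes in the CK, DCM and SPM libraries, drawn as points from replicate 1 at the left to replicate 3 at the right, with the mean as a line and 1 SD as bars. The open point is SPM replicate 2, and Fkbp5 is seen at 26.0 to 40.4 in CK against 92.2 to 147.8 in the DCM and SPM libraries.

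Levels of a gene across libraries are given below as normalized CPM, counts on a common library size (CPM) after TMM scaling over the 9 libraries, in the order of replicates 1, 2 and 3. Fkbp5 (chr17:28399094-28517527, minus strand) had 33.7, 26.0 and 40.4 CPM in CK, 92.9, 133.5 and 130.3 in DCM, and 147.8, 114.3 and 92.2 in SPM. The lowest DCM or SPM library thus lay above the highest CK library. In DCM compared to CK it was 3.57-fold higher (log2 fold change 1.84, SE 0.16, edgeR adjusted p = 2.52e-05). Among the 292 upregulated genes it ranked 27 by fold change. Over the 17 alternative settings its log2 fold change lay between 1.68 and 1.99, and its call held in each of them.

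Zbtb16 (chr9:48654297-48836222, minus strand), a zinc finger transcription factor known as a direct target of steroid receptors, had 68.1, 55.0 and 60.6 CPM in CK, 94.0, 148.0 and 174.4 in DCM, and 195.1, 148.6 and 108.0 in SPM. It was 2.27-fold higher in DCM than in CK (log2 fold change 1.18, SE 0.17, adjusted p = 1.02e-03). All DCM and SPM libraries lay above all CK libraries, while those of DCM and SPM overlapped. The spread within DCM and within SPM was wide, with an SD of 41.0 around a mean of 139 CPM in DCM and of 43.6 around 151 CPM in SPM. DCM replicate 1 was the lowest DCM library for both Zbtb16 and Fkbp5, and SPM replicate 1 was the highest SPM library for both.

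Klf9 (chr19:23141226-23168134, plus strand), a Krüppel-like transcription factor induced by glucocorticoids in many tissues, had 67.8, 93.2 and 107.4 CPM in CK and 137.9, 120.3 and 124.8 in DCM. Its lowest DCM library lay above the highest CK library, and the log2 fold change was 0.51 (SE 0.13, 1.43-fold, adjusted p = 0.0262). Sgk1 (chr10:21882184-21999903, plus strand), a kinase induced by both receptors that raises sodium transport, had 107.8, 141.3 and 140.0 CPM in CK and 157.9, 221.3 and 185.6 in DCM. Its groups did not overlap either, with a log2 fold change of 0.54 (SE 0.12, 1.45-fold, adjusted p = 0.0169). Both genes stayed under the fold change of 1.5. Sgk1 became a DEG without CK replicate 2, without CK replicate 3 or without DCM replicate 1, and Klf9 without CK replicate 3. In turn, Sgk1 lost the adjusted p of 0.05 without DCM replicate 2 (edgeR adjusted p = 0.0818), without DCM replicate 3 (0.0555) and with limma (0.0597). Klf9 lost it without CK replicate 2 (0.0672), without DCM replicate 1, 2 or 3 (0.0888, 0.0619 and 0.0710) and with limma (0.0865).

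Tsc22d3 (chrX:140539528-140600659, minus strand), an anti-inflammatory leucine zipper protein and a classical glucocorticoid target, had 103.8, 124.4 and 147.7 CPM in CK and 149.4, 148.3 and 158.3 in DCM. The DCM libraries lay just above the CK libraries, but CK alone spanned a wide range. The log2 fold change of 0.28 (SE 0.11) did not pass the test (adjusted p = 0.123).

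Mt1 (chr8:94179082-94180327, plus strand) had 140.3, 131.4 and 133.2 CPM in CK, 276.5, 275.2 and 222.0 in DCM, and 183.7, 183.4 and 183.9 in SPM. The 3 groups did not overlap, with SPM between CK and DCM. In DCM compared to CK it was 1.91-fold higher (log2 fold change 0.94, SE 0.09, adjusted p = 6.38e-05). Mt2 (chr8:94172664-94173568, plus strand) had few counts, 19, 27 and 22 in CK, 88, 49 and 66 in DCM and 71, 49 and 40 in SPM. Every DCM and SPM library lay above every CK library. It was 2.79-fold higher in DCM than in CK (log2 fold change 1.48, SE 0.33, adjusted p = 0.0144), a call that was lost without DCM replicate 1 (adjusted p = 0.0597). Of the 588 exon bases of Mt2, 432 (73.5%) overlap the opposite-strand gene Gm45774, which had 0 to 3 counts per library. Since the library kit named in the labels does not mark strand, reads of the 2 genes cannot be told apart where they overlap. The counting tool is not known, and it may have left out reads in this overlap. How far the low level of Mt2 comes from the counting was not tested.

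Neither receptor passed the test in this comparison. Nr3c1 had 61.7, 75.6 and 78.6 CPM in CK, 56.2, 51.7 and 63.2 in DCM, and 61.8, 68.1 and 73.6 in SPM. The groups overlapped, and the log2 fold change of -0.33 (SE 0.10) in DCM compared to CK missed the limit (adjusted p = 0.0573). It passed an adjusted p of 0.05 with DESeq2 (adjusted p = 0.0220) and limma (adjusted p = 0.0454), always below a fold change of 1.5. In edgeR it also passed with a GC offset (0.0107), no low-count filter (3.15e-03), the replicate block (0.0493) and without CK replicate 1 (7.01e-03). It missed 0.05 without CK replicate 2 or 3 (0.187 and 0.171) and without DCM replicate 1, 2 or 3 (0.147, 0.203 and 0.0554). Nr3c2 (chr8:76899442-77245012, plus strand) had 25.4, 25.1 and 29.3 CPM in CK and 24.2, 25.3 and 29.2 in DCM. These values overlapped almost entirely, with a log2 fold change of -0.02 (95% interval -0.24 to 0.20, adjusted p = 0.937). Its exons overlap the opposite-strand gene Gm10649, so that reads there cannot be told apart.

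The FPKM of Nr3c1 over that of Nr3c2 was 2.23, 2.77 and 2.46 in CK, 2.14, 1.88 and 1.99 in DCM and 1.88, 1.88 and 1.86 in SPM. The CK libraries were the highest, and the means were 2.49 ± 0.27, 2.002 ± 0.13 and 1.87 ± 0.0090 (SD, n = 3). Each pair of groups gave p = 0.1 in a two-sided exact permutation test, the smallest p that 3 against 3 libraries allow, so this design could not reach 0.05. The FPKM of Mt1 over that of Mt2 was 93.1 ± 14.2 in CK, 63.7 ± 12.7 in DCM and 53.6 ± 13.5 in SPM (SD, n = 3). The size of this ratio carries the limit on the counting of Mt2 given above. The exact permutation p was 0.1 for DCM against CK, 0.5 for SPM against DCM and 0.1 for SPM against CK. Without SPM replicate 2, where 0.2 is the smallest p, SPM against DCM and against CK gave 0.2 and 0.2 for the ratio of the receptors and 0.6 and 0.2 for that of the metallothioneins in the exact permutation test.

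**Figure D2:**
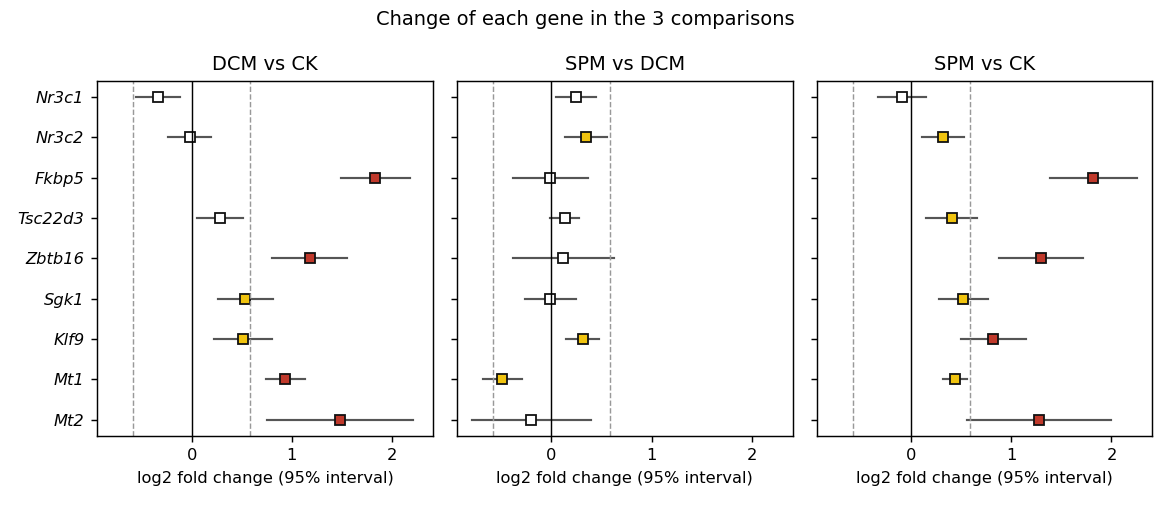
Log2 fold change (horizontal axes) with its 95% interval for the 9 genes in the 3 comparisons, with dashed lines at a fold change of 1.5 in either direction. Red squares are DEGs, yellow squares passed the adjusted p of 0.05 alone, and white squares passed neither. Fkbp5 lies at 1.84 in DCM vs CK, at -0.01 in SPM vs DCM and at 1.82 in SPM vs CK.

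The comparison of SPM with DCM asks how diabetic hearts differ with spermine. None of the 9 genes was a DEG by edgeR, DESeq2 or limma, where 3.59% of the 14493 genes tested were DEGs by edgeR, 2.70% upregulated and 0.890% downregulated. At an unadjusted p below 0.05 there were 4 of the 9 genes, Nr3c1, Nr3c2, Klf9 and Mt1, where 34.6% of all genes passed this limit. The median log2 fold change of the 9 genes was 0.12, and that of all genes tested was 0.01. This comparison shares the DCM libraries with the one above.

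Fkbp5, at 119 ± 22.6 CPM in DCM and 118 ± 28.0 in SPM (SD, n = 3), had a log2 fold change of -0.01 with a 95% interval of -0.39 to 0.37. Without SPM replicate 2 it was 0.01, with an interval of -0.39 to 0.42. Zbtb16 had a log2 fold change of 0.12 (interval -0.39 to 0.62), Sgk1 of -0.01 (-0.26 to 0.24) and Mt2 of -0.20 (-0.79 to 0.39), and without SPM replicate 2 these were 0.13 (-0.40 to 0.65), -0.01 (-0.30 to 0.28) and -0.15 (-0.91 to 0.61). The SPM libraries of these 4 genes overlapped those of DCM. The intervals of Zbtb16 and Mt2 are wide enough to include a fold change of 1.5, which is 0.58 on the log2 scale, and those of Fkbp5 and Sgk1 are not. Tsc22d3 lay higher in all SPM libraries (161.1, 166.2 and 172.6 CPM) than in DCM, with a log2 fold change of 0.13 (SE 0.06, adjusted p = 0.173, and 0.4155 without SPM replicate 2).

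At an adjusted p of 0.05 without the fold change, Mt1 was lower and Klf9 and Nr3c2 were higher in SPM, where 7.76% of all genes were lower and 8.87% higher at this limit. Mt1 was 1.41-fold lower (log2 fold change -0.49, SE 0.09, 95% interval -0.69 to -0.30, adjusted p = 0.0120), and no SPM library reached the lowest DCM library. The SPM values of Mt1 spanned only 183.4 to 183.9 CPM. Klf9 had 165.7, 159.6 and 150.7 CPM in SPM, all above DCM, with a log2 fold change of 0.31 (SE 0.07, adjusted p = 0.0222). Nr3c2 had 30.2, 33.3 and 36.3 CPM in SPM, also above all DCM libraries, with a log2 fold change of 0.34 (SE 0.10, adjusted p = 0.0376). Libraries that do not overlap were common in this comparison, at 39.2% of all genes, and 41.4% without SPM replicate 2.

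All 3 results were lost without SPM replicate 2 or without DCM replicate 2. Without SPM replicate 2 the edgeR adjusted p was 0.0572 for Mt1, 0.107 for Klf9 and 0.132 for Nr3c2, with log2 fold changes of -0.49, 0.31 and 0.34, and without DCM replicate 2 it was 0.0594, 0.0826 and 0.127, with log2 fold changes of -0.44, 0.27 and 0.32. Nr3c2 also missed 0.05 without DCM replicate 1 (0.1202), without SPM replicate 3 (0.0869) and with limma (0.0761), and Klf9 without DCM replicate 3 (0.0570) and with all 9 libraries in one fit (0.108). The fold changes of this comparison ran with the GC content of the genes (Spearman's rho -0.502 over 14484 genes, which share the same libraries and are no replicates). With a GC offset, Mt1 alone passed an adjusted p of 0.05 (log2 fold change -0.39, adjusted p = 0.0366). Nr3c1, at 42.2% the gene with the lowest GC content of the set, had a log2 fold change of 0.25 (SE 0.09, adjusted p = 0.0822), and of 0.01 with the offset.

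The comparison of SPM with CK sets spermine-treated diabetic hearts beside controls. Fkbp5, Zbtb16, Klf9 and Mt2 were upregulated DEGs, 4 of the 9 genes, where 9.21% of the 14574 genes tested were DEGs and 5.08% were upregulated. Fkbp5 was 3.53-fold higher (log2 fold change 1.82, SE 0.19, adjusted p = 9.95e-04), Zbtb16 2.45-fold (1.29, SE 0.19, adjusted p = 2.30e-03) and Klf9 1.77-fold (0.82, SE 0.14, adjusted p = 5.03e-03). Mt2 was 2.42-fold higher (1.28, SE 0.32, adjusted p = 0.0192), a call that was lost without CK replicate 1, without SPM replicate 1 or without SPM replicate 2 (adjusted p = 0.0528, 0.0769 and 0.0807). Without SPM replicate 2, Fkbp5 (adjusted p = 3.62e-03), Zbtb16 (9.69e-03) and Klf9 (0.0198) remained DEGs.

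At the adjusted p alone, 8 of the 9 genes were higher in SPM than in CK, against 13.0% of all genes, and 5 were without SPM replicate 2. The additional genes were Mt1 (log2 fold change 0.44, adjusted p = 1.26e-03), Sgk1 (0.52, adjusted p = 0.0101), Tsc22d3 (0.41, adjusted p = 0.0300) and Nr3c2 (0.32, adjusted p = 0.0345). Tsc22d3, Nr3c2 and Mt2 were those lost without SPM replicate 2, and the same genes were lost without CK replicate 1. Tsc22d3 and Nr3c2 were also lost without CK replicate 2, without SPM replicate 3 and with limma. For each of the 8 genes all SPM libraries lay above all CK libraries, which was so in this direction for 23.3% of all genes. Nr3c1 overlapped between the groups (log2 fold change -0.09, adjusted p = 0.543) and had -0.30 with a GC offset (adjusted p = 0.0253). SPM shares its CK libraries with the first comparison, so the changes against CK are 2 readings against one set of controls.

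Other genes of the pathway were read from lists named by function. These lists too were chosen with earlier results of these data known, so their counts beside the shares of all genes are descriptive. Of 25 other glucocorticoid-induced genes, 24 were tested, and Fbxo32, named here although the naming rule does not take it, had at most 0.03 CPM in any library. The counting tool and annotation are not known, and how far this level of Fbxo32 comes from them was not tested. In DCM compared to CK, 10 were upregulated DEGs, against 2.03% of all genes, and 1 was downregulated, against 2.31%, and the median log2 fold change was 0.48. Hif3a, a hypoxia-inducible factor subunit, was 3.68-fold higher (log2 fold change 1.88, SE 0.21, adjusted p = 1.89e-04), and Fam107a, an actin-binding protein also known as DRR1, was 3.53-fold higher (1.82, SE 0.15, adjusted p = 1.93e-05). The cell cycle inhibitor Cdkn1a was 2.01-fold higher (1.01, SE 0.14, adjusted p = 5.52e-04). The transcription factors Cebpd (1.55-fold, adjusted p = 2.90e-03) and Foxo3 (1.502-fold, adjusted p = 4.32e-03) were just past the fold change, and their calls were lost in 2 and 6 of 17 settings, respectively. Per1, Ddit4, Rasd1 and Nfkbia, named after their values were seen, were the remaining upregulated genes besides Lcn2, at 1.51-fold to 1.95-fold. Without DCM replicate 2 the list held 6 upregulated genes.

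Angptl4, an inhibitor of lipoprotein lipase that fatty acids also induce through PPARs, went the other way. It stood at 126 CPM in CK, 75.3 in DCM and 39.4 in SPM, and was a downregulated DEG in all 3 comparisons (log2 fold change -0.74 in DCM compared to CK, -0.94 in SPM compared to DCM and -1.69 in SPM compared to CK, adjusted p = 1.03e-03, 0.0185 and 1.86e-03). Without SPM replicate 2 the call of SPM compared to DCM was lost (adjusted p = 0.0573) and that of SPM compared to CK was not (9.57e-03). Pdk4, the kinase that blocks pyruvate dehydrogenase and the most abundant gene of the list, had 3025, 2226 and 1657 CPM in the 3 groups. It was a downregulated DEG in SPM compared to CK (1.83-fold lower, adjusted p = 3.06e-03, and 0.0141 without SPM replicate 2).

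**Figure D3:**
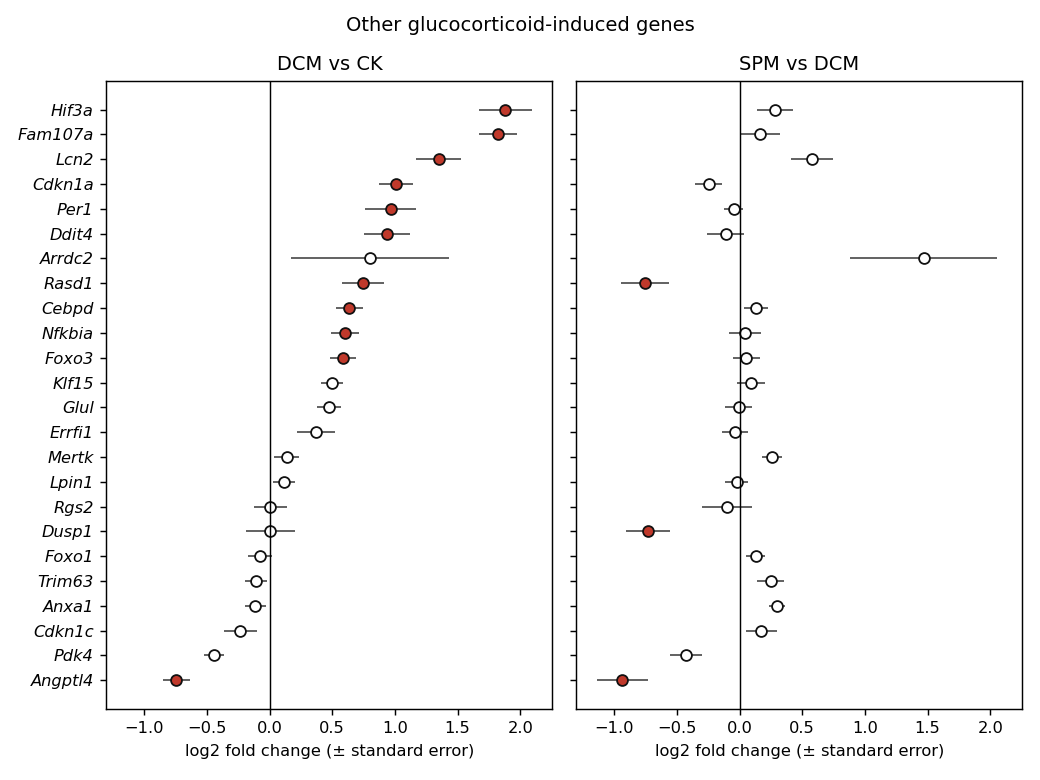
Log2 fold change with its standard error (horizontal axes) of the 24 other glucocorticoid-induced genes tested, in DCM vs CK at the left and SPM vs DCM at the right, with DEGs in red. At the left 10 genes are upregulated and 1 is downregulated, and at the right 3 are downregulated.

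In SPM compared to DCM no gene of this list was upregulated (2.70% of all genes were) by edgeR, DESeq2 or limma with all libraries and the same filter, and 10 of the 24 had an unadjusted p below 0.05, near the 34.6% of all genes. Leaving out SPM replicate 1 gave 1 and leaving out SPM replicate 3 gave 2 upregulated genes, and a filter of 1 CPM in 3 libraries gave 1. Angptl4, Dusp1 and Rasd1, the last 2 named after their values were seen, were downregulated. None of these calls held without DCM replicate 1, DCM replicate 2 or SPM replicate 2, or with a GC offset, and 1 held without DCM replicate 3. The median log2 fold change was 0.05. In SPM compared to CK, 9 genes of the list were upregulated and 2 downregulated (5.08% and 4.12% of all genes), and 8 and 2 were without SPM replicate 2.

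Lcn2, an iron-carrier binding protein that neutrophils also store, was 2.55-fold higher in DCM than in CK (log2 fold change 1.35, SE 0.18, adjusted p = 5.28e-04), at 3.03, 7.72 and 11.5 CPM in CK, DCM and SPM. The summed level of 7 neutrophil markers was 5.55 to 11.6 CPM in CK, between 12.7 and 28.8 in DCM and between 30.7 and 61.5 in SPM. Of these markers, 2, 4 and 5 reached 1 CPM in all libraries of the group, and Ly6g was at 0 in CK. The part of these cells in the level of Lcn2 was not tested.

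The 7 fibroblast markers measured summed to 2017 to 2116 CPM in CK, between 1361 and 1457 in DCM and between 1617 and 1689 in SPM, and all 7 reached 1 CPM in every library. In DCM compared to CK, 4 of them were downregulated DEGs, against 2.31% of all genes. The collagens Col3a1, Col1a2 and Col1a1 had 496, 308 and 229 CPM in CK and 170, 175 and 110 in DCM. Lum and Postn were lower as well, while Dcn had 795 and 774 CPM and Pdgfra 82.3 and 84.9. The 9 macrophage markers summed to 798 to 1052 CPM in CK, between 665 and 785 in DCM and between 789 and 1344 in SPM. In SPM compared to DCM, 6 of them were upregulated DEGs, against 2.70% of all genes. Without SPM replicate 2 these calls were lost, with edgeR adjusted p of 0.0520 (Adgre1) or more. The 4 atrial markers summed to 986 to 1396 CPM in CK, between 568 and 1062 in DCM and between 1027 and 1700 in SPM, and 2 of them were downregulated DEGs in DCM compared to CK. All markers of both lists reached 1 CPM in every library. The 7 cardiomyocyte markers measured summed to 45730 to 50860 CPM in CK, between 43750 and 50600 in DCM and between 38190 and 42680 in SPM. The 7 endothelial markers summed to 1869 to 2170 CPM in CK, between 1745 and 1940 in DCM and between 1578 and 1745 in SPM. The part of these shifts in the values of the 9 genes was not tested. Liver markers summed to 24.6 to 111 CPM in CK and 43.3 to 51.7 in DCM, so that these ranges overlapped. In SPM they summed to 429, 223 and 54.2 CPM in replicates 1, 2 and 3. From SPM replicate 1 to replicate 3, Fkbp5 went from 147.8 to 92.2 CPM and Zbtb16 from 195.1 to 108.0. Klf9 went from 165.7 to 150.7 CPM and Mt2 from 2.185 to 1.302. In the same order Nr3c1, Nr3c2, Tsc22d3 and Sgk1 rose, and Mt1 was at 183.7, 183.4 and 183.9 CPM. The part of liver RNA in the levels of the 9 genes was not tested.

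The machinery around the receptors gave few calls. Among 12 receptor chaperones and co-chaperones no gene was a DEG in any comparison by edgeR or DESeq2, and limma called 1, downregulated in SPM compared to CK. At an unadjusted p below 0.05 there were 4 in DCM compared to CK, 7 in SPM compared to DCM and 6 in SPM compared to CK, where this limit was passed by 24.6%, 34.6% and 40.9% of all genes, the shares against which the counts of the following lists are also to be read. Hsp90ab1, the most abundant of them, had 1655, 1637 and 1551 CPM in CK, DCM and SPM. Fkbp4, the co-chaperone that competes with Fkbp5 for the receptor complex and was named after its values were seen, had 477, 374 and 319 CPM. It was 1.27-fold lower in DCM than in CK (log2 fold change -0.35, SE 0.08, adjusted p = 0.0117) and 1.499-fold lower in SPM than in CK (-0.58, SE 0.05, adjusted p = 6.25e-04), just short of the fold change of a DEG. Without SPM replicate 2 it was 1.504-fold lower in SPM than in CK (adjusted p = 6.55e-03) and thereby a DEG.

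Among 9 receptor coregulators no gene was a DEG by edgeR, DESeq2 or limma, and 1, 3 and 5 had an unadjusted p below 0.05 in DCM compared to CK, SPM compared to DCM and SPM compared to CK. The remodelling ATPase Smarca4, the most abundant, had 104, 96.2 and 88.8 CPM in CK, DCM and SPM. Of 11 genes of steroid synthesis, inactivation and transport, 4 or 5 were tested, with no DEG by the 3 tools and 0, 1 and 1 at the unadjusted p. H6pd, which supplies the cofactor for Hsd11b1, had 74.9, 82.4 and 83.5 CPM. Zinc handling and other metallothioneins gave no DEG among 6 genes tested by the 3 tools, with 1, 2 and 0 at the unadjusted p, and the zinc importer Slc39a14 had 48.4, 46.2 and 52.5 CPM.

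Sodium transport under mineralocorticoid control and the relatives of Sgk1 gave 1 DEG among 6 genes tested. Sgk3, a kinase of the Sgk1 family, was 1.71-fold higher in SPM than in DCM (log2 fold change 0.77, SE 0.11, adjusted p = 8.23e-03, and 0.0440 without SPM replicate 2). This call was lost with a GC offset (0.43, adjusted p = 0.0515). Of 8 inflammatory genes that glucocorticoids are known to repress, 4 or 5 were tested. None was downregulated by the 3 tools, 1, 1 and 2 had an unadjusted p below 0.05 in either direction, and the adhesion molecule Vcam1 was upregulated in SPM compared to CK (1.53-fold, adjusted p = 6.63e-04, and 7.14e-03 without SPM replicate 2), a call that limma and the GC offset did not give. Icam1 was at 22.5, 26.0 and 30.5 CPM in CK, DCM and SPM.

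The 5 genes whose log2 CPM over the 9 libraries was most like that of Fkbp5, by Pearson's r among 14089 genes, were Fam107a (0.993), Myzap (0.993), Bcl2l1 (0.993), Sult1a1 (0.990) and Tcf23 (0.988). These values describe the likeness over libraries that fall into groups, and carry no test. Fam107a had 10.8, 7.78 and 10.6 CPM in CK, 27.6, 39.2 and 36.2 in DCM and 47.7, 36.8 and 30.9 in SPM. As with Fkbp5, CK replicate 2, DCM replicate 1 and SPM replicate 3 were the lowest of their groups. The log2 fold changes of DCM compared to CK were 1.82 for Fam107a, 1.195 for Tcf23, 0.91 for Bcl2l1, which encodes the survival protein Bcl-xL, 0.88 for the sulfotransferase Sult1a1 and 0.58 for Myzap, a protein of the intercalated disc.

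**Figure D4:**
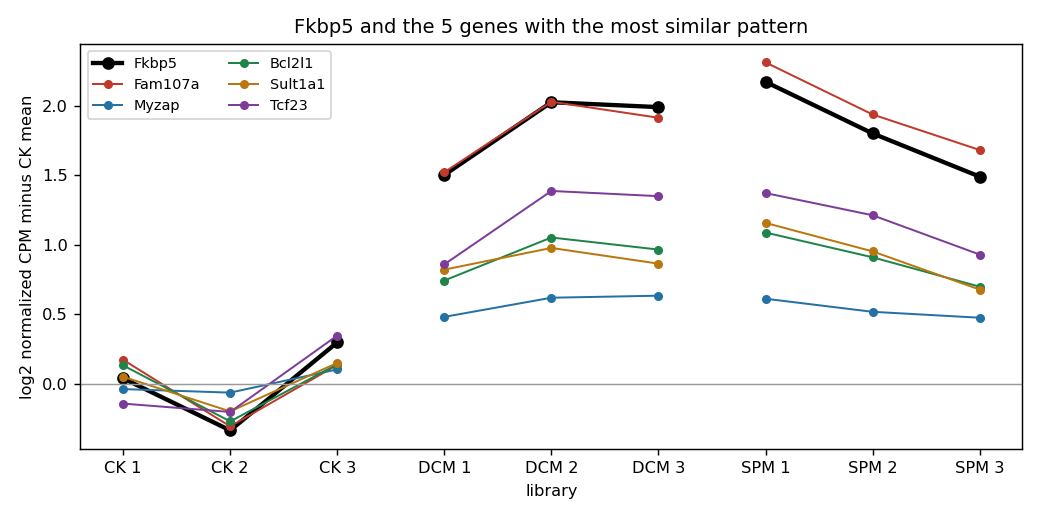
Log2 normalized CPM minus the mean of the CK libraries (vertical axis) for Fkbp5 in black and the 5 genes most like it, in the 9 libraries along the horizontal axis, joined within each group. In each group the genes order the libraries in much the same way, at different sizes, from 0.58 for Myzap to 1.84 for Fkbp5 in DCM vs CK.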

How the data were processed

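Heart RNA of 9 libraries was compared over CK, DCM and SPM, each library assigned to its group by its label. The authors deposited whole-number counts for each gene in each library, after read filtering with fastp 0.18.0. The submitters' processing notes name Bowtie 0.12.2 and the builds mm8 and mm9 without a role, while the counting tool and the annotation were not given in the sources used here. Deposited as well were FPKM values, which equal the counts over a fixed gene length and the library total, with a largest relative deviation of 8.6e-13. All columns were used, except that FPKM served only for levels between genes, ratios and the limma alternative. Symbols and positions came from GENCODE M21 on GRCm38, in which 22820 of 22851 identifiers were found, and promoter windows from RefSeq on GRCm38.p6.

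For each pair of groups a fit to their 6 libraries was tested by edgeR 4.0.16 (quasi-likelihood, R 4.3.3) after filterByExpr and TMM, with Benjamini-Hochberg adjustment over all genes tested. DEGs were called at an adjusted p under 0.05 with at least a 1.5-fold change. These limits are those of the paper's methods, which used DESeq2. TMM factors lay between 0.967 and 1.05, and the common biological coefficient of variation was 0.122 over 14909 genes. Total counts of 29901300 to 39718680 set the counting error, which is largest for Mt2 with 19 to 88 counts. The fit was tested on simulated data. Replicate numbers were not found to pair libraries.

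The genes of the set and the lists were chosen with earlier results of these data known. The naming rule takes all genes of the set, from each list the DEGs of any comparison, at most 8 by smallest p, and its most abundant gene, and the 5 genes most like Fkbp5. A gene that this rule takes is not reported here. Alternatives were DESeq2 1.42.0, RLE scaling, all 9 libraries fitted together, no filter, 1 CPM or more in 3 libraries, the replicate number as a block, limma 3.58.1 on log2 of FPKM plus 0.1, mitochondrial genes left out, a GC offset (lowess span 0.3), limits on the fold change of 1.3 and of none, and leaving out each library in turn. Other steps used Python 3.11.15, pandas 2.3.3, scipy 1.17.1 and matplotlib 3.10.9.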

Additional observations from a re-analysis of the deposited data

How the results depend on the processing

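The number of DEGs among the 9 genes stayed at 4, 0 and 4 in DCM compared to CK, SPM compared to DCM and SPM compared to CK under DESeq2, RLE, both other filters, all 9 libraries in one fit, limma, the removal of mitochondrial genes and the GC offset. With a fold change of at least 1.3 it was 6, 1 and 7, and with no limit 6, 3 and 8. Leaving out 1 library gave 4 to 6, 0 to 1 (Mt1, without DCM replicate 3) and 3 to 5. Among all genes the DEGs numbered 625, 521 and 1342, and counts that moved by over 1.5 times were 122 with a GC offset and 56 without SPM replicate 2 in SPM compared to DCM (73 and 280 without DCM replicates 2 and 1, and 791 without SPM replicate 3), and 771 without SPM replicate 2 in SPM compared to CK. A fold change of 1.3 gave 1100, 1299 and 2532 DEGs, and no limit 1497, 2410 and 3989. The share of upregulated DEGs was 46.7% and 55.2% in the comparisons with CK, and 33.5% and 39.0% with limma.

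Replicate numbers were not found to pair libraries, with residual correlations of -0.0746 to 0.205 between same-numbered libraries and -0.284 to 0.217 between others. A replicate block left 4, 0 and 4 DEGs among the 9 genes and gave 568, 610 and 1282 among all genes. At the adjusted p alone it gave 7, 4 and 8 of the 9 genes, Nr3c1 being the added gene in the first and second.

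Changes of sign occurred for log2 fold changes near 0, none of which passed the test. With each library left out in turn, those of DCM compared to CK ran from -0.099 to 0.055 for Nr3c2, from -0.075 to 0.024 for Hsp90ab1 and from -0.12 to 0.026 for Slc39a14. Those of SPM compared to DCM ran from -0.21 to 0.13 for Fkbp5, from -0.12 to 0.31 for Zbtb16, from -0.13 to 0.12 for Sgk1, from -0.025 to 0.30 for Fam107a, from -0.061 to 0.13 for Foxo3 and from -0.023 to 0.064 for H6pd. With the GC offset Fkbp5 had 0.054 and Smarca4 0.034 in SPM compared to DCM, and with the replicate block Sgk1 had 0.0014. The causes were not tested. Depth limits Mt2 most, with 19 to 88 counts per library.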
